A study of Mus musculus with 12 samples.

Results

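The response of natural regulatory T cells (nTregs) to azacitidine (AzaC) was measured as the difference between 3 nTreg arrays of AzaC-treated cultures and 3 nTreg arrays of PBS-treated cultures. These are 6 of the 12 arrays of the series, and the response was read over 22180 genes of the deposited table, with no gene chosen for its values. The other 6 arrays hold CD4 effector T cells sorted from the same kind of culture (3 with AzaC, 3 with PBS), called CD4 cells here. They enter the estimate of the spread and serve for comparison. In all 4 groups nTregs from B6.Foxp3GFP spleens, whose Foxp3 gene carries a green reporter, were grown with Treg-depleted T cells of the B6.Foxp3GFP x B6.CAGDSRED cross, which also carry the red protein DsRed, at 1 part to 10 parts. Beads coated with antibodies to CD3 and CD28, and human interleukin-2 at 500 U/mL, activated the cells over 2 days, and 1 µM AzaC or PBS was then present for another 2 days. The nTregs were then sorted as CD4+, DsRed-, Foxp3GFP+ and the CD4 cells as CD4+, DsRed+, Foxp3GFP-. The strain label of the nTreg arrays names a cross of B6.Foxp3GFP with the DsRed line B6.Cg-Tg(CAG-DsRed*MST)1Nagy/J, while the growth protocol takes the nTregs from B6.Foxp3GFP mice. The cultures also held CD8 T cells. Ages are not given in the labels. Nor do they state if the 3 arrays of a group represent different mice or cultures. The p-values therefore refer to the variation among these samples alone, and that variation may be technical.

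AzaC is an analogue of cytidine that cells build into RNA and, after reduction, into DNA, where it traps DNA methyltransferases and lowers methylation as cells divide. Methylation of CpG dinucleotides at promoters is commonly linked to silencing, and the stable expression of Foxp3, the defining transcription factor of regulatory T cells, depends on demethylated elements of its own gene. Regulatory T cells restrain other T cells through interleukin-2 consumption, inhibitory receptors and, in some states, granzymes, and they depend on receptors of the TNF family and on the transcription factor NF-kB.

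The population label held against its defining markers. Foxp3 read 11.98, 12.52 and 12.52 in PBS arrays 1 to 3 and 12.72, 12.68 and 12.68 in AzaC arrays 1 to 3, against 7.79 to 8.26 in the PBS arrays of CD4 cells. Its difference in nTregs was 0.35 (SE 0.16, adjusted p = 0.294) and did not pass the test. The interleukin-2 receptor chain Il2ra (difference 0.26), Ikzf2 (Helios, 0.30), the inhibitory receptor Ctla4 (0.14), Cd4 (0.13) and the CD3 chain Cd3e (0.23) did not pass either. PBS array 1 lay below the other 2 PBS arrays for Foxp3, Il2ra, Ctla4, Cd4 (10.37 against 11.08 and 11.08) and Cd3e (11.79 against 12.58 and 12.63). Without it the difference was 0.17 for Foxp3, -0.11 for Cd4 and -0.04 for Cd3e. None of the markers passed in that fit either. PBS array 1 had a mean correlation of 0.972 with the other arrays, which themselves reached 0.979 to 0.987, so results are given with it and without it. Arrays named by number alone are nTreg arrays.

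AzaC changed 448 genes in nTregs at an adjusted p under 0.05, which is 2.02% of those tested. Of these, 315 rose (1.42%) and 133 fell (0.6%). At least 2-fold changes were rarer, with 61 genes higher and 10 lower, and the median log2 difference was 0.70 among the genes that rose and -0.64 among those that fell, beside -0.04 over all genes. The 3 AzaC values lay wholly above or below the 3 PBS values for all 448, as they did for 24.5% of all genes tested. Without PBS array 1 the test passed 410 genes (1.85%), 252 higher and 158 lower. Of the 448, 291 passed in both fits in the same direction, 204 of them higher and 87 lower. Genes of middle and high signal passed more often than dim ones: 0.294% of genes with a mean signal under 5 on the log2 scale were called, 0.796% from 5 to 7, 3.61% from 7 to 9, 3.28% from 9 to 11 and 2.05% above. The count fell to 186, 187 and 186 when AzaC array 1, 2 or 3 was left out. The share of rises among the called genes was 70.3%, but 82.4% with each array centred on its median and 57.8% with quantile normalization repeated. These are RNA levels of sorted bulk samples, in which fewer cells of a type and less RNA per cell cannot be told apart.

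The gene with the largest rise was Il23r, a chain of the interleukin-23 receptor best known from type 17 helper T cells. Il23r read 5.34, 4.87 and 4.53 in PBS arrays 1 to 3 and 7.69, 7.04 and 7.05 in AzaC arrays 1 to 3. All 3 AzaC arrays stood above every PBS array, PBS array 1 being the highest of the controls (log2 difference 2.35, SE 0.20, adjusted p = 5.18e-05, and 2.56 without PBS array 1). Plagl1, which encodes a zinc finger protein and is imprinted, read 6.73, 6.91 and 6.68 in PBS arrays 1 to 3 and 8.90, 9.07 and 9.24 in AzaC arrays 1 to 3. Its groups were separated by far more than their spread (4.93-fold, adjusted p = 2.62e-07), and the second array row of Plagl1 differed by 1.13. Csn2, the gene of the milk protein beta-casein, went from a mean of 4.64 ± 0.15 (SD, n = 3) to 6.69 ± 0.20. The PBS signals of Il23r and Csn2 were dim, with the fifth percentile of all genes at 3.94 to 4.12 on the nTreg arrays.

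The remaining rises among the largest 15 covered signalling, membrane and cytoskeletal genes. Dusp4, a phosphatase that switches off MAP kinases, read 8.17, 8.43 and 9.15 in PBS arrays 1 to 3 and 9.87, 10.43 and 10.60 in AzaC arrays 1 to 3, a rise of 1.72 (adjusted p = 0.0013). Its PBS arrays were more scattered than its AzaC arrays, with no overlap. Odc1, which makes the first polyamine, rose by 1.64. It was the only member of 15 measured polyamine genes to pass the test (6.67%, beside 2.02% of all genes). Atp8b4, a phospholipid flippase subunit, rose by 1.73, and Ly6g5b, a member of the Ly6 family encoded in the MHC region, rose by 1.91. Scin, an actin-severing protein (1.55), Enah, which promotes actin filament growth (1.48), the mucin Muc1 (1.53), Sema7a, a membrane-anchored semaphorin (1.5), and Podnl1 (1.53) followed. The neighbours Tmem176a and Tmem176b, cation channels of immune cells, rose by 1.54 and 1.51. The adjusted p of all 15 stayed under 0.05 without PBS array 1 and in each other alternative in which they were tested.

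Fam183b fell most. It read 11.09, 10.31 and 10.36 in PBS arrays 1 to 3 and 8.16, 8.36 and 8.35 in AzaC arrays 1 to 3, a difference of -2.30 (SE 0.22, adjusted p = 9.66e-05). The 3 AzaC values lay close together and far below every PBS value, of which PBS array 1 was the highest. Clybl, a mitochondrial citramalyl-CoA lyase, was strongly expressed and read 11.25, 11.06 and 11.31 in PBS arrays 1 to 3 and 9.84, 10.18 and 10.16 in AzaC arrays 1 to 3 (-1.15, adjusted p = 0.000515). Slc25a33, a mitochondrial carrier of pyrimidine nucleotides, read 9.87, 9.33 and 9.41 in PBS arrays 1 to 3 and 8.34, 8.43 and 8.38 in AzaC arrays 1 to 3. That is a fall of 1.15 on the log2 scale (adjusted p = 0.00267). Slc25a33 was the only one of 23 genes of AzaC uptake and metabolism that passed (4.35%, beside 2.02% of all genes). Further falls were those of the mucin Muc3a (-1.35), the secreted proteoglycan Prg4 (-1.23), the chitinase-like Chil5 (-1.12), Gpr155 (-1.07), the RNA Mirt1 (-0.99), the ion pump modulator Fxyd7 (-0.95), Ly6c1, a surface protein of memory T cells (-0.94), and Endou (-0.89). Ifi213, Itgam, Serpini1 and Lockd complete the largest 15 falls, but each lost its call when some single arrays were left out. For Ifi213 these were AzaC arrays 1 and 3 (adjusted p up to 0.0676), for Lockd AzaC array 3 (0.0512), for Serpini1 PBS array 1 or any AzaC array (0.136) and for Itgam 7 different arrays (0.141): CD4 AzaC 2 and 3, nTreg PBS 2 and 3, and each nTreg AzaC array. With the nTreg arrays fitted alone, Muc3a, Chil5, Gpr155 and Mirt1 also missed the threshold in limma's test (adjusted p of 0.0617, 0.0573, 0.0556 and 0.0572). Gpr155 is represented by 3 rows, and the other 2 changed by -0.20 and -0.31 only.

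**Figure D1:**
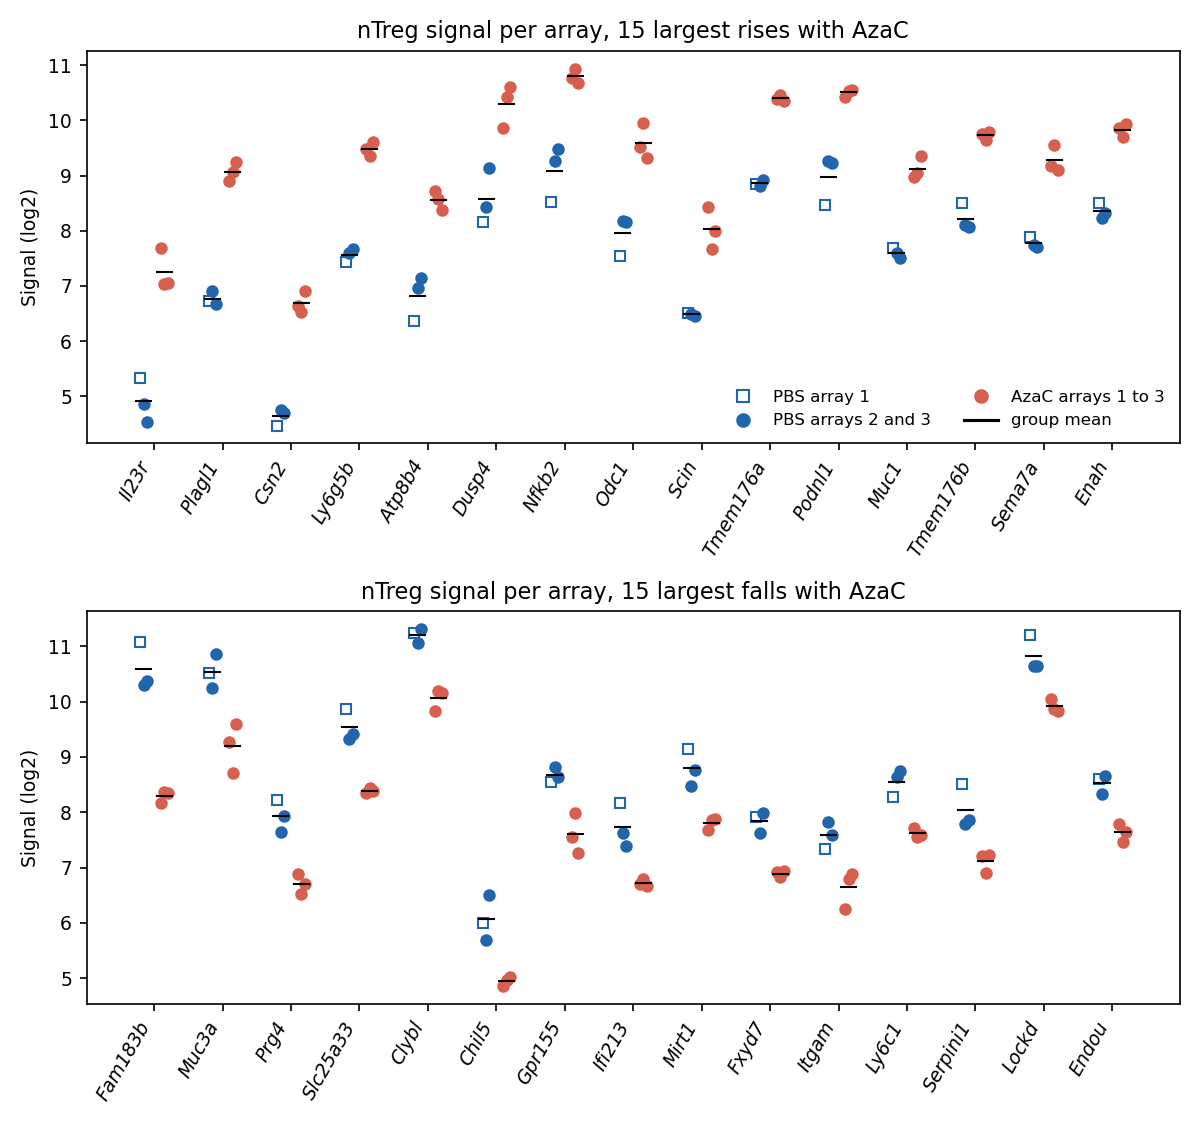
Signal of each nTreg array on the log2 scale (vertical axis) for the 15 largest rises (top) and the 15 largest falls (bottom), with blue symbols for PBS, red for AzaC and a black bar at each group mean. Every AzaC point of Il23r, at 7.04 to 7.69, lies above its PBS points at 4.53 to 5.34, and the open square, PBS array 1, is the lowest PBS point of Nfkb2 and the highest of Fam183b.

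Since AzaC acts on CpG methylation, the promoters of genes at the ends of the response are shown, from 250 bases before to 50 after the first start that RefSeq lists (GRCm38.p6), 5′ to 3′ on the gene's strand with each CpG in capitals. Among the 15 largest rises, Il23r and Csn2 had 2 CpG each, Nfkb2 25 and Plagl1 26; among the largest falls, Ly6c1 had 1 and Slc25a33 30. The windows are Il23r at chr6:67491806-67492105 (minus strand), Csn2 at chr5:87699376-87699675 (minus strand), Plagl1 at chr10:13090582-13090881 (plus strand), Nfkb2 at chr19:46304487-46304786 (plus strand), Ly6c1 at chr15:75048788-75049087 (minus strand) and Slc25a33 at chr4:149774218-149774517 (minus strand).
Il23r: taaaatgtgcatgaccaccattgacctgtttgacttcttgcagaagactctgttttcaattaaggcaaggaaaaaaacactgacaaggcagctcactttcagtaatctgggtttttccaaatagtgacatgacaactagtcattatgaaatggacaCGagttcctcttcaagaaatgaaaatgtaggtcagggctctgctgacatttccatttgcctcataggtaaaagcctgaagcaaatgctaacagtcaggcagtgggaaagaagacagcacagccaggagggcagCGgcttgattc
Csn2: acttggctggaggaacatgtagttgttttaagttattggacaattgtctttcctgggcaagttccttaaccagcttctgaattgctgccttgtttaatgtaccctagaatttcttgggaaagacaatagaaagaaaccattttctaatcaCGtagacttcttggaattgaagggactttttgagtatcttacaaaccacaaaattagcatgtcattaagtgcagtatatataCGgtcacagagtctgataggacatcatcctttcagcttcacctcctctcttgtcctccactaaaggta
Plagl1: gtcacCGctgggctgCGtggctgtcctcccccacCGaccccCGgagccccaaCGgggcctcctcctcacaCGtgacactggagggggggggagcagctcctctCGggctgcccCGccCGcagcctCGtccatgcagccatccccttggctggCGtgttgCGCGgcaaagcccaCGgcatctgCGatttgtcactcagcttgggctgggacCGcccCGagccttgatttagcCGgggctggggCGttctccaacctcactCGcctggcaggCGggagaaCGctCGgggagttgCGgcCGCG
Nfkb2: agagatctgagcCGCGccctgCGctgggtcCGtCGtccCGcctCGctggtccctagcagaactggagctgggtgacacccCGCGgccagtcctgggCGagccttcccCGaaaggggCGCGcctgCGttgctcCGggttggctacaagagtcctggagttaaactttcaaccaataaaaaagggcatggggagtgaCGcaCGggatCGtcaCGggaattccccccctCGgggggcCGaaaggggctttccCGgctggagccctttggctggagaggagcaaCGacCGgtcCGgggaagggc
Ly6c1: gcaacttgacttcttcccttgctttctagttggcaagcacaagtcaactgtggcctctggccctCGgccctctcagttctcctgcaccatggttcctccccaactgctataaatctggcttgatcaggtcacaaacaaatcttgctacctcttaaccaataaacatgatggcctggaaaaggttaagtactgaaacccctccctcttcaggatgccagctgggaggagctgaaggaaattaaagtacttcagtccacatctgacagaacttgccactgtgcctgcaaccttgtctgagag
Slc25a33: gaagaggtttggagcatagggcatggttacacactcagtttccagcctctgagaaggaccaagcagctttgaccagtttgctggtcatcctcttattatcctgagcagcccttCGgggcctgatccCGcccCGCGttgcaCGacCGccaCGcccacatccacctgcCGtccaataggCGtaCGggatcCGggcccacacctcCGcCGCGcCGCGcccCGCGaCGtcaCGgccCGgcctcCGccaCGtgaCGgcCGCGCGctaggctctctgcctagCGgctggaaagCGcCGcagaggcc
These promoters were chosen for low or high CpG counts within the rises and, separately, within the falls. CpG-poor and CpG-rich examples in both directions therefore follow from the choice and do not bear on direction.

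A promoter was listed for 16918 of the 22180 genes and for 337 of the 448 that changed. The 242 promoters of genes that rose held a median of 19.5 CpG (quartiles 9 and 28), the 95 of genes that fell 8 (3 and 23), and all promoters 13 (4 and 24). Genes with a mean signal of at least 6, which passed the test more often, had a median of 18. Of the genes that rose at least 2-fold, 49 had a promoter, with a median of 11. At most 5 CpG were found in 15.7% of the promoters of genes that rose, 41.1% of those of genes that fell, 31.9% of all and 18.7% of those with a signal of at least 6. The part of the signal level in these shares was not tested.

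Several genes of NF-kB signalling rose. NF-kB dimers are held in the cytoplasm by inhibitors of the IkB family. A canonical arm frees dimers of Rela and Rel, and a non-canonical arm, started by some TNF family receptors, processes the Nfkb2 product to let it act with Relb. Of 26 measured NF-kB subunits and regulators, 9 rose and 0 fell (34.6%, beside 2.02% of all genes and 10.3% of the genes in all lists). Of the 26, 23 had a difference above 0, and their median was 0.39. Without PBS array 1 the same count of 9 rose and the median was 0.34. In CD4 cells 0 of the 26 passed limma's test, and 2 had an unadjusted p under 0.05, with a median of -0.06, and 391 genes (1.76%) passed there in all. The difference between the 2 responses passed for only 3 of the 26, Nfkb2, Nfkbie and Birc2. Nfkbie passed in all 12 fits that left out 1 array, Nfkb2 in 3 and Birc2 in 1. In fits that left out 1 array, 6 to 9 rose, with 6 without nTreg AzaC array 1 or 3, and 5 rose when the nTreg arrays were fitted alone. All lists together, chosen with earlier results of these data known, held 79 called genes among 769 measured. The mean signal of the NF-kB list was 8.90 to 9.25 in PBS arrays. Of all genes with a signal from 7 to 9, 3.61% were called, and from 9 to 11, 3.28%.

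Among the subunits, Nfkb2 read 8.52, 9.27 and 9.48 in PBS arrays 1 to 3 and 10.77, 10.94 and 10.68 in AzaC arrays 1 to 3 (difference 1.71, adjusted p = 0.000489). PBS array 1 was its lowest control, and the difference without it was 1.42 (adjusted p = 0.000128). Relb read 7.91, 8.46 and 8.31 in PBS arrays 1 to 3 and 9.58, 9.44 and 9.17 in AzaC arrays 1 to 3 (1.17, adjusted p = 0.0013). For both genes of the non-canonical pair every AzaC array lay above every PBS array. Rela (0.59, adjusted p = 0.0795) and Rel (0.36, adjusted p = 0.148), subunits of the canonical arm, did not pass. Whether the 2 arms differed in response was not tested.

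The inhibitors and feedback genes of the pathway moved with these subunits. Nfkbie, the inhibitor IkB epsilon, read 7.49, 7.83 and 7.73 in PBS arrays 1 to 3 and 8.85, 9.02 and 8.85 in AzaC arrays 1 to 3 (1.23, adjusted p = 6.44e-05). Its groups were separated with little spread in either. Bcl3, a nuclear IkB protein, rose by 0.81 (SE 0.11), Birc2 and Birc3, neighbouring genes for the cIAP ubiquitin ligases that hold the non-canonical kinase in check, by 0.68 and 0.59. These 3 and Nfkb2, Relb and Nfkbie passed whichever single array was left out. Tnip1, a partner of the deubiquitinase A20, rose by 0.72 but not without AzaC array 1 or 3 (adjusted p up to 0.0541). Traf1, a receptor adaptor, rose by 0.66, and Nfkbia, the inhibitor IkB alpha, by 0.42. Each of these 2 lost its call without any AzaC array and without some others: for Traf1 CD4 PBS 1 and CD4 AzaC 3 (adjusted p up to 0.125), for Nfkbia CD4 PBS 1 and 2, CD4 AzaC 3 and nTreg PBS 2 and 3 (up to 0.134). The kinase gene Map3k14 (0.17) and A20 itself, Tnfaip3 (0.43), did not pass.

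**Figure D2:**
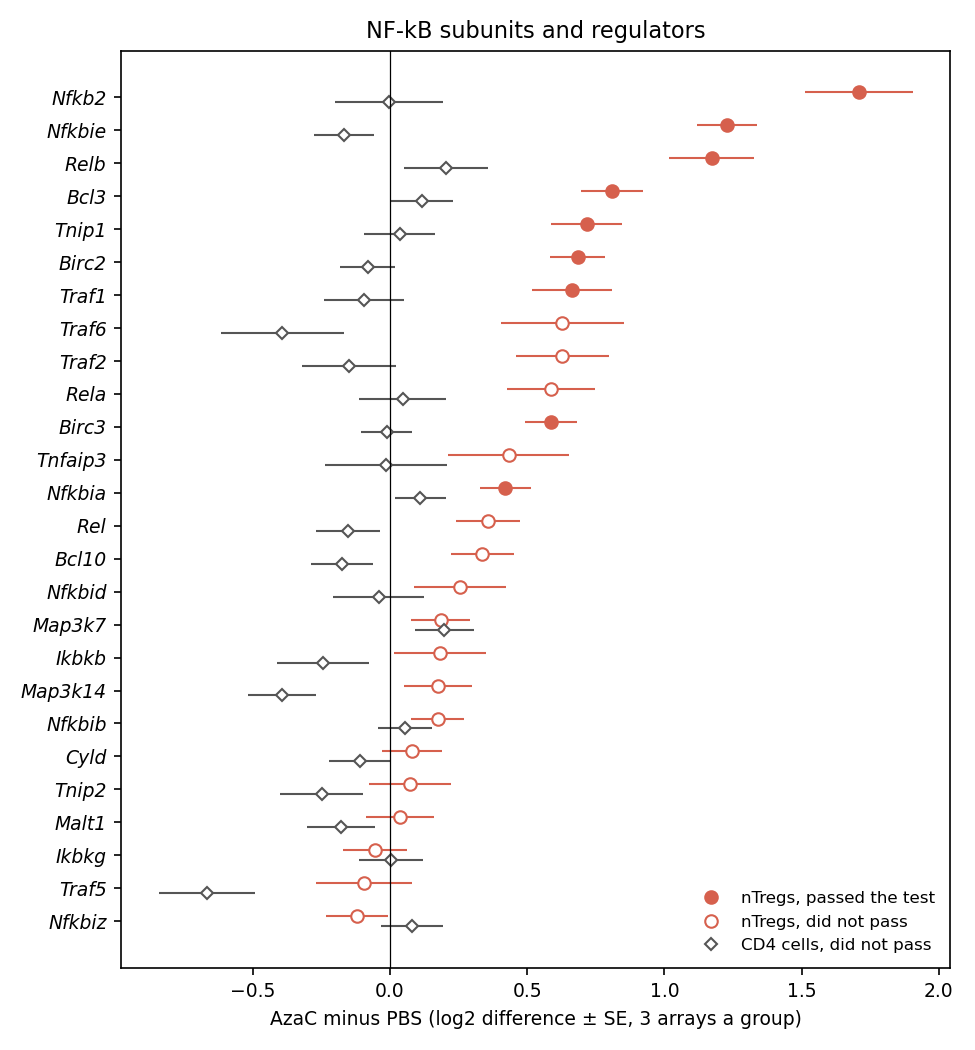
Log2 difference between AzaC and PBS with its SE (horizontal axis) for the 26 measured NF-kB genes, in nTregs (red circles, filled where the test passed) and CD4 cells (grey diamonds), 3 arrays in each group. Nfkb2, at 1.71 in nTregs and 0.00 in CD4 cells, heads 9 filled circles, and no CD4 value passed. The difference between the responses passed for 3 of the 26 genes.

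The ligands of the TNF family rose too, with 5 of 15 measured members passing. That is 33.3%, beside 2.02% of all genes and 10.3% of the genes in all lists. Their median was 0.55 (0.46 without PBS array 1, also 5 called). In CD4 cells 4 of the 15 rose, beside 184 of all 22180 genes there. Tnf, the founding cytokine of the family, read 9.41, 9.91 and 9.92 in PBS arrays 1 to 3 and 10.77, 10.90 and 10.71 in AzaC arrays 1 to 3 (1.05, adjusted p = 0.00394). The AzaC arrays lay above all PBS arrays, and Tnf rose in CD4 cells by a like amount (1.12). Ltb, the membrane-bound lymphotoxin that engages the non-canonical arm, read 12.01, 12.62 and 12.93 in PBS arrays 1 to 3 and 13.49, 13.45 and 13.42 in AzaC arrays 1 to 3 (0.93), Lta, the soluble lymphotoxin, rose by 0.66, Tnfsf8, the CD30 ligand, by 0.59, and Fasl, the death ligand, by 0.91. Only 1 of the ligands, Tnf, passed when AzaC array 1 was left out. Lta also lost its call without AzaC array 3, Tnfsf8 without AzaC array 2, and Ltb and Fasl without either of those 2 arrays, with adjusted p up to 0.0611 for Ltb and 0.112 for Fasl. Among 24 receptors of the family, 2 rose (8.33%), Tnfrsf8 (CD30, 0.81) and Tnfrsf9 (4-1BB, 0.76). Tnfrsf8 lost its call without PBS array 1 (adjusted p = 0.111) and without 9 other single arrays, all but CD4 PBS 2 and nTreg PBS 2, and Tnfrsf9 without PBS array 1 (0.0808) or any AzaC array. Tnf, Lta, Ltb and Lst1 lie side by side on chromosome 17 within 20.5 kb, in the GRCm38.p6 order of genes, and were the longest run of neighbours called in the same direction. Of these, Lst1 (0.52) lost its call without 9 single arrays, PBS array 1 among them (adjusted p up to 0.16), the 3 others being CD4 PBS 3, CD4 AzaC 1 and nTreg AzaC 3.

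Promoters were searched on both strands for the kB motif, the degenerate consensus of NF-kB sites. It was present in 46 of the 242 promoters of genes that rose in nTregs (19%), in 7 of the 95 of genes that fell (7.37%) and in 1517 of all 16918 (8.97%). The share was 9.95% among genes with a mean signal of at least 6, 9.22% among genes that rose in CD4 cells and 9.88% among those that fell there. For the 156 genes that rose both with and without PBS array 1 it was 19.2%. Counting a match at any listed start gave 21.5% for the genes that rose and 10.6% for all. The AP-1 motif, TGACTCA or TGAGTCA, was found in 4.96% of the promoters of genes that rose and 4.71% of all. These shares describe letters in a window, not bound sites, and no test was run on them.

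Of the 8 NF-kB genes that rose and had a promoter listed, 5 held the kB motif, as did 10 of all 22 with a promoter. The matches are shown because they stand at the pathway's own genes, with the position of the leftmost base counted from the start of transcription and all letters in capitals belonging to the motif. Nfkb2 had them at -39 and -11, Nfkbie at -106, Tnip1 at -58, Bcl3 at 3 and, on the opposite strand, Nfkbia at -29 and the ligand gene Ltb at -87.
Nfkb2, at -39: GGGAATTCCC
Nfkb2, at -11: GGGGCTTTCC
Nfkbie: GGGGGATTCC
Tnip1: GGGGAATTCC
Bcl3: GGGAAGTCCC
Nfkbia: GGGAATTTCC
Ltb: GGGACTTTCC
The promoters of Traf1, Birc2, Birc3, Tnf and Lta held no match in this window. Other genes that rose and held one included Atp8b4, Tmem176a, H2-Aa, Icosl, Cxcl10 and Calr, named here after their values were seen.

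**Figure D3:**
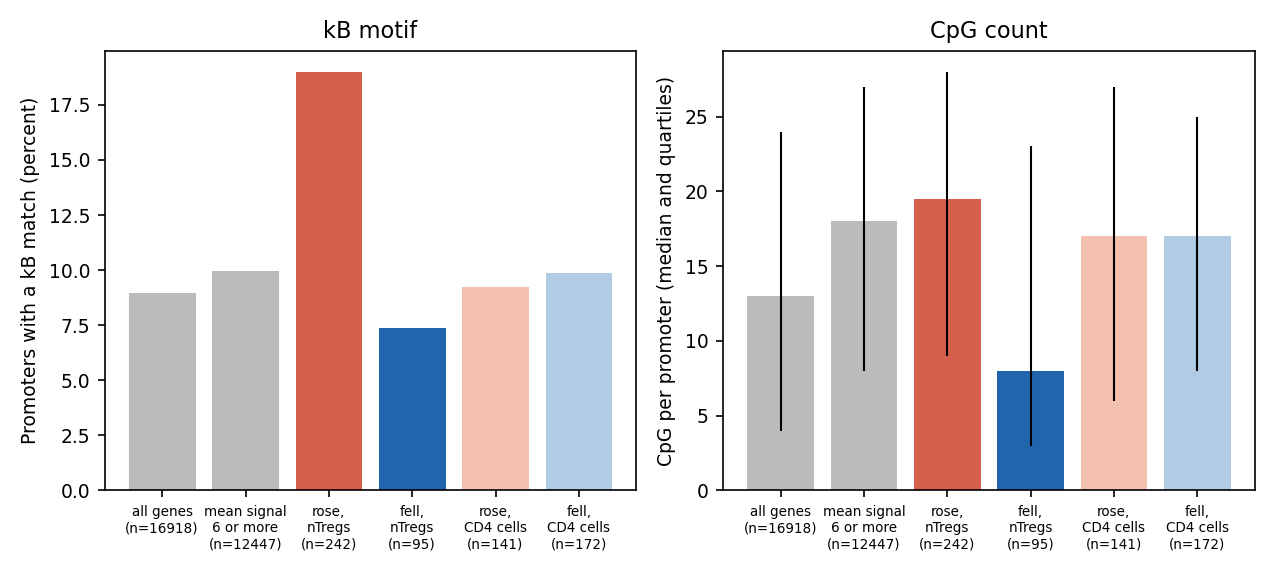
Share of promoters with a kB match (left, percent) and CpG count per promoter (right, median as bar and quartiles as line) for all genes, genes of mean signal 6 or more, and genes that rose or fell in nTregs and in CD4 cells, with the number of promoters under each bar. The kB share is 19% for genes that rose in nTregs and 7.37% to 9.95% in the other groups, and genes that fell in nTregs have the lowest median CpG count, 8.

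Genes of regulatory T cell identity changed in part. Of 28 measured, 5 rose and 1 fell (21.4%, beside 2.02% of all genes and 10.3% of the genes in all lists). The median was 0.27 (0.11 without PBS array 1, with 4 risen and 1 fallen). Itgae, the integrin CD103 that marks tissue-homing regulatory T cells, read 8.65, 8.58 and 8.65 in PBS arrays 1 to 3 and 9.70, 9.43 and 9.63 in AzaC arrays 1 to 3 (0.96, adjusted p = 0.00018). Its 2 groups were tight and did not overlap. Plagl1 and Tnfrsf9, listed here too, are described above. Ikzf4, the Eos partner of Foxp3, rose by 0.76 but not without any one of the AzaC arrays (adjusted p up to 0.0686). Klrg1, an inhibitory lectin of effector-like regulatory T cells, rose by 0.67 and lost its call without PBS array 3 or any AzaC array (up to 0.0775). Tigit, an inhibitory receptor, went the other way, reading 9.47, 10.05 and 9.71 in PBS arrays 1 to 3 and 8.85, 9.03 and 9.0 in AzaC arrays 1 to 3 (-0.78, adjusted p = 0.0399). Its AzaC values lay below all PBS values, but the call was lost without 8 single arrays (up to 0.145) and held without PBS array 1, CD4 PBS 2 and 3 and CD4 AzaC 1. The list kept only 2 rises, Itgae and Plagl1, without any of the AzaC arrays. Plagl1 is counted again among the lineage factors and the imprinted genes. Since the lists were chosen with earlier results of these data known, its place here is no independent support.

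Cytotoxic granule genes rose in 5 of 18 cases (27.8%, beside 2.02% of all genes and 10.3% of the genes in all lists), with a median of 0.33. Gzmc, a granzyme, read 8.55, 8.35 and 7.99 in PBS arrays 1 to 3 and 9.29, 9.24 and 9.45 in AzaC arrays 1 to 3 (1.03, adjusted p = 0.0046). Ctsw, a protease of cytotoxic lymphocytes, read 10.26, 10.45 and 10.63 in PBS arrays 1 to 3 and 11.11, 11.12 and 11.22 in AzaC arrays 1 to 3 (0.70, adjusted p = 0.00417). Both were higher on all AzaC arrays. Serpinb9, which protects cells from granzyme B, rose by 0.74 (not without AzaC array 1 or 3, adjusted p up to 0.0593), and Nkg7, a granule membrane protein, by 0.57 (not without 10 of the single arrays, the 2 exceptions being CD4 PBS 3 and nTreg PBS 1; up to 0.177). Fasl was the fifth. Without PBS array 1, 7 members rose, among them Gzma, which is described with that array below, and only 2 rose without AzaC array 1 or 3. Eomes, a T-box factor of cytotoxic lymphocytes, read 7.95, 7.83 and 7.56 in PBS arrays 1 to 3 and 8.84, 8.63 and 8.74 in AzaC arrays 1 to 3 (0.96, adjusted p = 0.0013), with AzaC values above all PBS values.

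The markers of CD8 T cells, which were present in the cultures and carry such granules, rose in the same arrays. Cd8a read 6.45, 6.73 and 7.39 in PBS arrays 1 to 3 and 8.32, 8.17 and 8.24 in AzaC arrays 1 to 3 (1.39, adjusted p = 0.0018), and in CD4 cells 6.66 to 7.09. Cd8b1 read 10.25, 10.48 and 10.53 in PBS arrays 1 to 3 and 11.17, 11.06 and 11.20 in AzaC arrays 1 to 3 (0.72, adjusted p = 0.0213). Its call was lost without PBS array 1 (adjusted p = 0.0547) or any AzaC array. The mean of the 2 markers was 8.35 to 8.96 in PBS arrays and 9.62 to 9.75 in AzaC arrays, and both lay well above the fifth percentile of the arrays. The sort gate for nTregs (CD4+, DsRed-, Foxp3GFP+) leaves out CD8 T cells of the DsRed+ fraction. The part of CD8 T cells in the rise of the cytotoxic genes was not tested. Of the other marker lists, 0 of 12 B cell genes (1 at an unadjusted p under 0.05), 0 of 4 erythroid and platelet genes (0 likewise), 1 of 10 NK and gamma-delta T cell genes (Eomes) and 2 of 20 myeloid genes passed limma's test. Over all genes 2.02% passed. The mean level of the myeloid markers was 6.55 to 6.75 in PBS arrays and 6.41 to 6.46 in AzaC arrays, with Itgam lower and the signalling chain Fcer1g higher (0.62). Fcer1g lost its call without PBS array 2 or 3 or any AzaC array (adjusted p up to 0.124).

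Lineage transcription factors rose in 4 of 21 cases, Plagl1, Eomes, Batf3 and Bhlhe40. Batf3, a partner of Jun proteins, read 7.63, 7.08 and 7.42 in PBS arrays 1 to 3 and 8.72, 8.36 and 8.47 in AzaC arrays 1 to 3 (1.14, adjusted p = 0.00163). Bhlhe40, a repressor that favours cytokine production, read 8.42, 9.25 and 9.64 in PBS arrays 1 to 3 and 10.27, 10.31 and 10.19 in AzaC arrays 1 to 3. Its PBS arrays spread more widely than its AzaC arrays, PBS array 1 being the lowest, and its difference of 1.15 was 0.81 without that array (adjusted p = 0.0117). The call on Bhlhe40 was lost without any one of the AzaC arrays (up to 0.0808). The genes with the pattern most like that of Il23r over the 6 nTreg arrays were Birc2, Eomes, Sdhaf1, Ncoa7 and Mapkap1, with Pearson correlations of 0.985 to 0.994, given as a description only.

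Cytokine genes rose in 4 of 26 cases (Tnf, Lta, Ltb and Lif), while the list's median was 0.02. The called share was 15.4%, beside 2.02% of all genes and 10.3% of the genes in all lists. Tnf, Lta and Ltb are also counted among the TNF ligands. Lif (0.80) lost its call without PBS array 1 (adjusted p = 0.123) and without 9 other single arrays, all but CD4 PBS 3 and nTreg PBS 2. Of 15 chemokines 2 rose (13.3%, beside 2.02% of all genes and 10.3% of the genes in all lists). Cxcl10, which draws cells bearing Cxcr3, read 6.94, 6.66 and 6.80 in PBS arrays 1 to 3 and 7.76, 7.79 and 7.94 in AzaC arrays 1 to 3 (1.03, adjusted p = 0.000568). Xcl1, which draws cross-presenting dendritic cells, rose by 0.92 (adjusted p = 0.0051) and in CD4 cells by 0.76. Both were higher on each AzaC array than on any PBS array.

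Receptors for cytokines rose in 5 of 28 cases, or 17.9% beside 2.02% of all genes and 10.3% of the genes in all lists. Their median was 0.27, and 0.16 without PBS array 1 with 3 risen. Besides Il23r, Il7r, the interleukin-7 receptor that regulatory T cells usually carry little of, read 10.57, 10.46 and 10.64 in PBS arrays 1 to 3 and 11.20, 11.13 and 11.10 in AzaC arrays 1 to 3 (0.59, adjusted p = 0.00405). In CD4 cells Il7r fell by 0.61 (adjusted p = 0.00357). The difference between these responses was 1.2 (SE 0.13, adjusted p = 0.00194), and it passed whichever single array was left out. Il12rb2, the neighbour of Il23r and a chain of the interleukin-12 receptor, rose by 0.46, Il27ra by 0.70 and Ifngr2 by 0.60. Each of these 3 had an adjusted p close to the threshold (0.0446, 0.0483 and 0.0438) and lost its call in most fits that left 1 array out (up to 0.203 for Ifngr2). The call was kept only without CD4 PBS 3 or nTreg PBS 3 for Il12rb2, without any nTreg PBS array for Il27ra, and without CD4 PBS 1 or 3 or AzaC array 1 for Ifngr2. Without PBS array 1 the adjusted p was 0.0998 for Il12rb2 and 0.0822 for Ifngr2.

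Homing genes were divided. Cxcr6, a receptor of tissue-resident T cells, read 6.80, 6.53 and 7.04 in PBS arrays 1 to 3 and 7.66, 7.71 and 7.99 in AzaC arrays 1 to 3 (1.00, adjusted p = 0.00245), with each AzaC value above each PBS value. Cxcr4, which holds cells in bone marrow and lymphoid tissue, read 10.79, 11.12 and 11.10 in PBS arrays 1 to 3 and 10.38, 10.45 and 10.45 in AzaC arrays 1 to 3 (-0.58, adjusted p = 0.0255). All AzaC values of Cxcr4 lay below the PBS values, but the call was lost without PBS array 2 or 3 or any AzaC array (up to 0.0962). Of 28 members 3 rose and 1 fell (3 and 3 without PBS array 1). That is 14.3%, beside 2.02% of all genes and 10.3% of the genes in all lists. The other rises were those of Itgae and of the lymph node receptor Ccr7 (0.41). The adjusted p of Ccr7, 0.0494, went above the threshold whichever of the 12 arrays was left out.

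Ligands and receptors of the CD28 and B7 family rose in 4 of 21 cases and fell in 1, Tigit. The called share was 23.8%, beside 2.02% of all genes and 10.3% of the genes in all lists. Cd86, a B7 ligand of CD28 and Ctla4, read 8.56, 8.33 and 8.55 in PBS arrays 1 to 3 and 9.26, 9.56 and 9.61 in AzaC arrays 1 to 3 (0.99, adjusted p = 0.00157). Icosl, the ligand of Icos, read 6.83, 7.02 and 7.08 in PBS arrays 1 to 3 and 8.08, 7.78 and 8.18 in AzaC arrays 1 to 3 (1.04, adjusted p = 0.0028). In both genes the AzaC arrays lay above all PBS arrays. Cd274, the inhibitory ligand PD-L1, rose by 0.72 (not without PBS array 3 or AzaC array 1 or 2, adjusted p up to 0.0845). Its receptor gene Pdcd1 rose by 0.50, but lost the call without PBS array 1 (adjusted p = 0.104) and without 9 other single arrays, all but CD4 PBS 1 and 2. The list's median was 0.06.

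Of 14 genes of MHC class II presentation 2 rose and 1 fell. That is 21.4%, beside 2.02% of all genes and 10.3% of the genes in all lists. H2-Aa, an alpha chain that mouse T cells normally express little of, read 5.98, 6.14 and 5.73 in PBS arrays 1 to 3 and 7.44, 7.06 and 7.42 in AzaC arrays 1 to 3 (1.36, adjusted p = 0.000488), and its neighbour H2-Eb1 rose by 0.71. The AzaC values of both lay above all PBS values, while H2-Eb1 lost its call without AzaC array 1 (adjusted p = 0.0603). H2-Ob, which restrains peptide loading, fell by 0.77, and this was lost without PBS array 2 or 3 or any AzaC array (up to 0.144). The mean level of the 12 B cell markers was 6.91 to 6.99 in PBS arrays and 6.94 to 6.99 in AzaC arrays. The part of B cells, myeloid cells or dendritic cells in the changes of these class II genes was not tested. In MHC class I presentation, Tapbp alone of 13 passed (0.76); its second row changed by 0.20, and its call was lost without PBS array 1 (adjusted p = 0.0708) and without each other array but nTreg PBS 2.

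Of 27 genes of the stress response (ATF4 and unfolded protein), 4 rose, 0 fell and 23 did not pass, with a median of 0.10. The called share was 14.8%, beside 2.02% of all genes and 10.3% of the genes in all lists. Xbp1, the transcription factor of the unfolded protein response, read 10.06, 10.12 and 10.23 in PBS arrays 1 to 3 and 11.19, 11.51 and 11.46 in AzaC arrays 1 to 3 (1.25, adjusted p = 0.000387). Calr, the chaperone calreticulin, read 9.56, 9.89 and 9.84 in PBS arrays 1 to 3 and 10.67, 10.64 and 10.70 in AzaC arrays 1 to 3 (0.91), and Sdf2l1, another protein of the endoplasmic reticulum, rose by 0.94. These 3 were higher on all AzaC arrays and kept their calls whichever single array was left out. Psat1, an enzyme of serine synthesis, rose by 0.54 but not without PBS array 1 (adjusted p = 0.0558), PBS array 3, CD4 PBS 1, CD4 AzaC 3 or any AzaC array.

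Genes of growth and division moved in small steps. Of 29 genes of ribosome biogenesis, 23 had a difference above 0 (median 0.32, and 0.21 without PBS array 1). Of these 29, 3 rose and 1 fell (13.8%, beside 2.02% of all genes and 10.3% of the genes in all lists). Utp20, a component of the small-subunit processome, rose by 0.68 (adjusted p = 0.00405). Heatr1 rose by 0.49 (not without AzaC array 2 or 3), Bop1 by 0.71 (not without 9 single arrays, all but the nTreg PBS arrays), and Wdr12 fell by 0.60 (not without AzaC array 2), with adjusted p up to 0.098, 0.161 and 0.0579. Genes of G1/S and replication had a difference above 0 in 26 of 29 cases (median 0.27), and those of G2/M and mitosis below 0 in 27 of 29 (median -0.25, and -0.33 without PBS array 1), where 12881 of all 22180 genes were below 0. Cdk6, a kinase of the G1 phase, read 9.61, 9.92 and 10.08 in PBS arrays 1 to 3 and 10.76, 10.91 and 10.78 in AzaC arrays 1 to 3 (0.95, adjusted p = 0.00145), and in CD4 cells it rose by 1.38. Tk1, thymidine kinase, rose by 0.75 and Mcm2, of the replicative helicase, by 0.69, the last not without any one of the AzaC arrays (up to 0.0746). In G2/M the phosphatase Cdc25b (-0.73), the checkpoint kinase Bub1 (-0.52), the motor Cenpe (-0.46) and the spindle protein Ckap2l (-0.52) fell. They make up 13.8% of the 29 genes, beside 2.02% of all genes and 10.3% of the genes in all lists. These 4 falls of the list were 2 with arrays centred on their medians, 8 with quantile normalization repeated and 2 without PBS array 1. Each of these 4 calls was lost when any one AzaC array was left out (adjusted p up to 0.219). Cdc25b was also lost without PBS array 2 or 3, Cenpe without those 2 arrays, CD4 PBS 2 or CD4 AzaC 3, and Ckap2l without PBS array 3 or any CD4 array but PBS 3. Only Cdc25b kept its call without PBS array 1 (0.000511, against 0.0547, 0.0746 and 0.111).

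Death regulators rose in 4 of 28 cases (14.3%, beside 2.02% of all genes and 10.3% of the genes in all lists). These were Birc2 and Birc3, already described, Bcl2l1 (0.71), which opposes mitochondrial cell death, and Diablo (0.54), which promotes it. Bcl2l1 lost its call without any AzaC array or any CD4 array (adjusted p up to 0.145), and Diablo without any one of the 6 nTreg arrays, CD4 PBS 1 or CD4 AzaC 3 (adjusted p = 0.0638 without PBS array 1). In cholesterol and fatty acid synthesis Scd1, the stearoyl-CoA desaturase, read 9.20, 9.0 and 8.99 in PBS arrays 1 to 3 and 8.47, 8.0 and 8.34 in AzaC arrays 1 to 3 (-0.79, adjusted p = 0.00604), and Pmvk, of the mevalonate pathway, fell by 0.68. Elovl6, a fatty acid elongase, rose by 0.47, with a call lost without 11 of the 12 arrays in turn, all but CD4 PBS 3 (adjusted p up to 0.161, and 0.103 without PBS array 1). The median of these 25 genes was 0.21 with PBS array 1 and -0.02 without it. For T cell receptor signalling it was 0.12 and -0.08, with 0 of 25 genes passing limma's test in either fit (2 fell with quantile normalization repeated) and 7 at an unadjusted p under 0.05 with the array.

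Among T cell differentiation genes, 2 of 22 rose (Il7r and Ccr7) and 3 fell. That is 22.7%, beside 2.02% of all genes and 10.3% of the genes in all lists. Klf3, a repressor of the Kruppel family, read 9.47, 9.76 and 9.66 in PBS arrays 1 to 3 and 8.85, 8.96 and 8.96 in AzaC arrays 1 to 3 (-0.70, adjusted p = 0.00427), and Slamf6, a self-binding receptor, read 12.30, 12.23 and 12.16 in PBS arrays 1 to 3 and 11.61, 11.64 and 11.69 in AzaC arrays 1 to 3 (-0.59, adjusted p = 0.00453). Ly6c1 was the third. In these genes all AzaC arrays lay below all PBS arrays, and the second row of Slamf6 differed by -1.36. Egr1 (-0.70) fell and Fosb (0.84) rose among 22 immediate early factors (9.09% called, beside 2.02% of all genes). Without PBS array 1, 0 of the 22 rose and 3 fell. Egr1 lost its call without PBS array 3 or any AzaC array (up to 0.121), and Fosb without PBS array 1 (adjusted p = 0.0845), nTreg PBS 2, any AzaC array and each CD4 array but PBS 1.

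Lists tied to the known actions of the drug were read beside the 2.02% of all genes that passed, a share at which lists of this size hold few called genes. Of 19 genes of DNA methylation and demethylation 0 passed limma's test, the smallest p belonging to Uhrf1 (0.64, adjusted p = 0.101) and Dnmt3a (0.30, adjusted p = 0.142). Germline genes, which methylation keeps silent in body cells, passed in 0 of 24 cases, with 18 differences below 0 and a highest value of 0.22. Listed interferon-stimulated genes passed in 0 of 25 (median 0.22), p53 targets in 0 of 26 (median 0.15) and imprinted genes in 1 of 26, Plagl1. The interferon list is a selection, and Ifi209, an interferon-inducible gene outside it that is described below, was called. Without PBS array 1, 1 gene of the interferon list rose and 1 fell (median 0.16), and 1 p53 target rose (median 0.05). Genes of DNA methylation and germline genes stayed at 0 called in that fit. With PBS array 1 included, limma's unadjusted p was under 0.05 for 3 of the 19 genes of DNA methylation and 2 of the 24 germline genes. It was so for 10 of the 25 interferon-stimulated genes and 9 of the 26 p53 targets, beside 3720 of all 22180 genes. In CD4 cells 9 of the 26 p53 targets rose, beside 184 of all 22180 genes there.

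**Figure D4:**
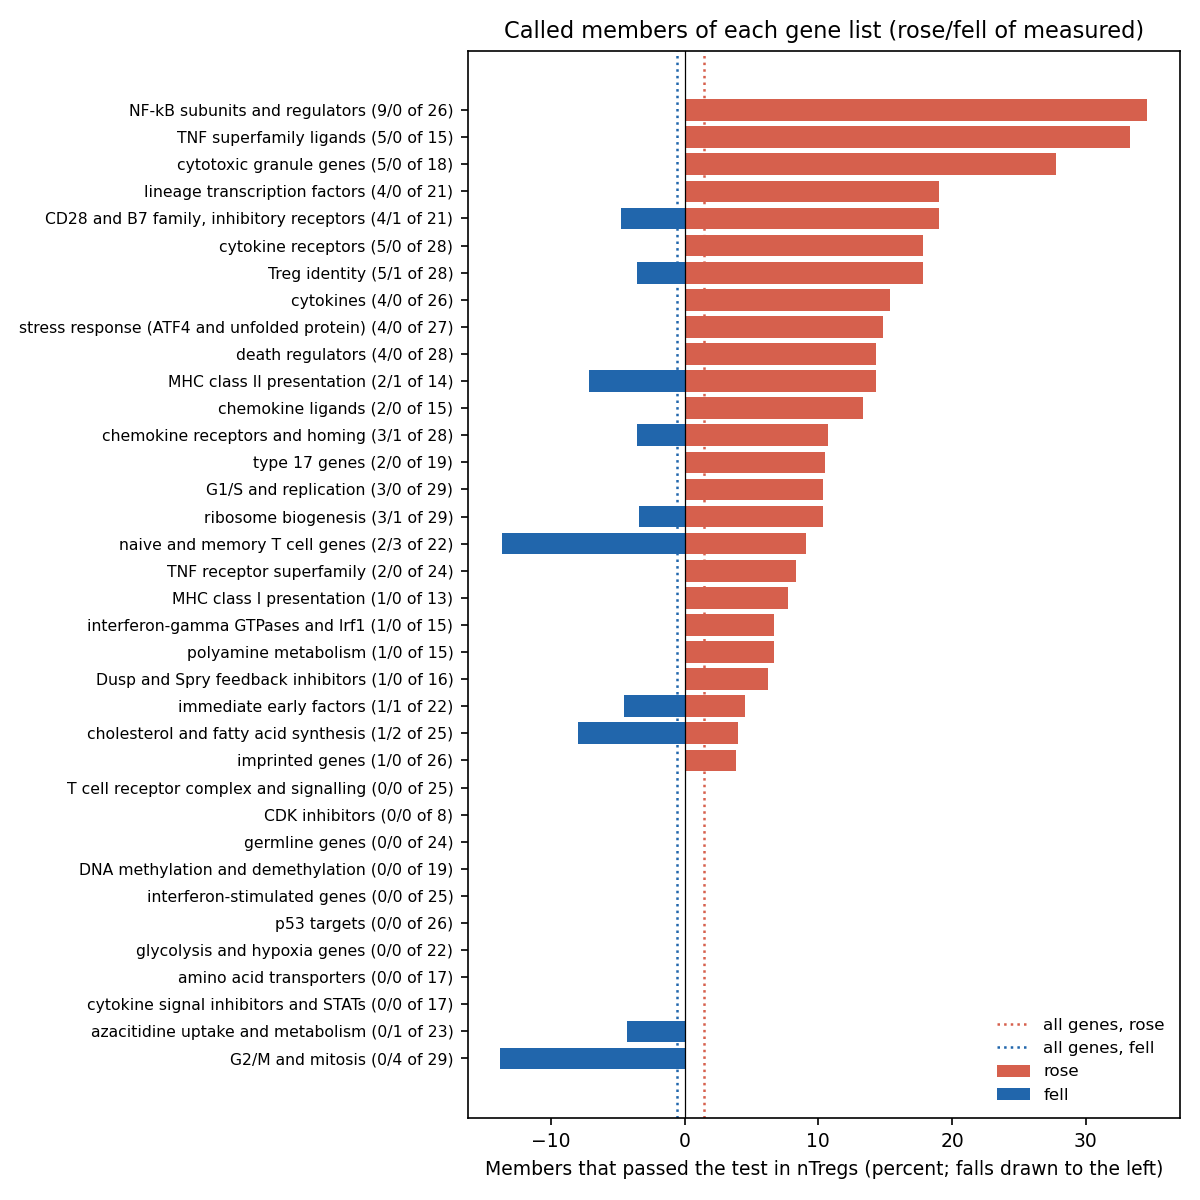
Percent of the measured members of each gene list that rose (red, to the right) or fell (blue, to the left) in nTregs, with the counts beside each name and dotted lines at the shares of all genes, 1.42% and 0.6%. NF-kB genes, with 9 of 26, and TNF ligands, with 5 of 15, have the longest bars, and 9 lists have none.

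PBS array 1 decided part of the result. Only without it did 119 genes pass, 48 higher and 71 lower, and in 103 of these the array lay nearer to the AzaC mean than to the mean of the other 2 PBS arrays. Gzma, granzyme A, read 7.58, 5.87 and 6.25 in PBS arrays 1 to 3 and 7.35, 7.66 and 7.94 in AzaC arrays 1 to 3 (1.08, adjusted p = 0.121). PBS array 1 lay among the AzaC values, and the difference without it was 1.59 (adjusted p = 0.00192). S1pr1, the receptor that lets T cells leave lymphoid tissue, read 10.97, 12.09 and 12.03 in PBS arrays 1 to 3 and 11.08, 11.24 and 11.15 in AzaC arrays 1 to 3. Its difference was -0.54 (adjusted p = 0.242) with the array and -0.90 (adjusted p = 0.00139) without it, and Klf2, the factor that drives S1pr1, went from -0.56 (0.113) to -0.78 (0.00569). The integrin chain Itga4 (-0.65 without the array), the nuclear receptor Nr4a1 (-0.71) and Bcl6, of follicular T cells (-0.57), passed in the same way; S1pr1, Klf2, Itga4, Nr4a1 and Bcl6 are named after their values were seen. The largest fall of this kind was that of the integrin Itga7, which read 8.36, 9.96 and 10.30 in PBS arrays 1 to 3 and 8.25, 8.65 and 8.40 in AzaC arrays 1 to 3, with PBS array 1 near the AzaC arrays (-1.10, and -1.69 without it).

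Other genes passed only with the array, 111 higher and 46 lower. In 134 of these 157, PBS array 1 lay beyond both other PBS arrays on the side away from AzaC. Adm, the peptide adrenomedullin, read 5.47, 5.75 and 6.09 in PBS arrays 1 to 3 and 6.60, 7.5 and 6.70 in AzaC arrays 1 to 3 (1.16, adjusted p = 0.0192, and 0.0551 without the array). Zdhhc23, a palmitoyltransferase (1.04), Ppargc1a, a coactivator of mitochondrial genes (0.93), and Mxd1, an antagonist of Myc (0.89), were among the rises, and the interferon-inducible Ifi209 (-0.83) and Cox7a1, a cytochrome oxidase subunit (-0.69), among the falls. Each missed the threshold without PBS array 1, with adjusted p of 0.0547, 0.06, 0.0777, 0.0693 and 0.103, but none depended on that array alone. Adm was also lost without AzaC array 2 (adjusted p = 0.0763), Ifi209 without any AzaC array (up to 0.125), Ppargc1a without PBS array 2 or AzaC array 1 or 3 (up to 0.119) and Zdhhc23 without PBS array 3, CD4 PBS 1 or any AzaC array (up to 0.136). Mxd1 was lost without PBS array 2, CD4 PBS 1 or 2, CD4 AzaC 1 or any AzaC array (up to 0.153), and Cox7a1 without PBS array 2, any CD4 PBS array, CD4 AzaC 2 or any AzaC array (up to 0.143).

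**Figure D5:**
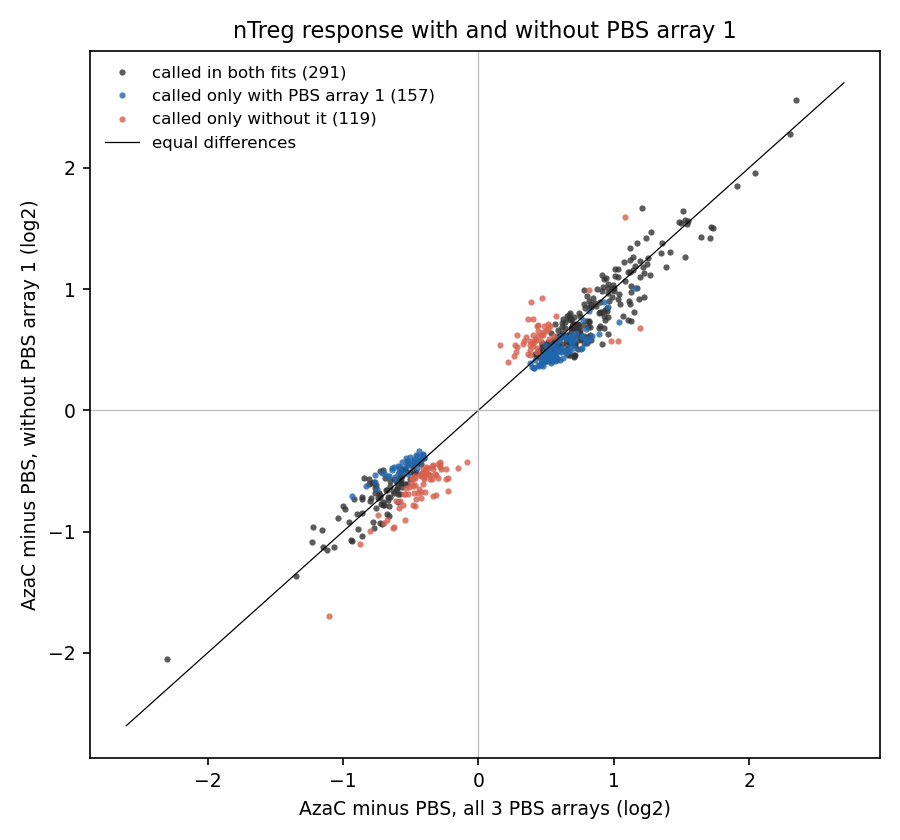
Log2 difference between AzaC and PBS in nTregs with all 3 PBS arrays (horizontal) and without PBS array 1 (vertical), for genes called in both fits (black, 291), only with the array (blue, 157) or only without it (red, 119), with a line of equal differences. Black points extend to 2.35 and 2.56 for Il23r, and Itga7, at -1.10 and -1.69, is the red point furthest below the line.

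The response was set against that of the CD4 cells, which shares no array with it; the labels tie no CD4 array to the culture of an nTreg array. Of the 315 genes that rose in nTregs 50 rose in CD4 cells too, out of 184 that rose there, and of the 133 that fell 36 also fell, out of 207. The difference between the responses passed for 45 genes, 0.203% of those tested, 28 of them among the genes called in nTregs. That count was 9 to 29 without any one of 10 arrays, 55 without PBS array 3 and 69 without PBS array 1. Plagl1 differed most firmly, with 2.30 in nTregs and 0.38 in CD4 cells (difference 1.92, SE 0.16, adjusted p = 0.000268). Atp8b4 (difference 1.99, adjusted p = 0.00311), Nfkbie (1.39, adjusted p = 0.00194), Enah (1.2, adjusted p = 0.00493) and Il7r also passed whichever single array was left out. Nfkb2 (1.71, adjusted p = 0.0253), Cd86 (1.10, 0.0356), Cxcr6 (1.28, 0.0252) and Birc2 (0.77, 0.0482) passed with all arrays but in only 3, 3, 4 and 1 of the 12 fits that left 1 array out, with adjusted p up to 0.0894, 0.126, 0.0853 and 0.152. The fits that left out PBS array 1 were among those passing for Nfkb2, Cd86 and Cxcr6, and the only one for Birc2.

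On the other side stood genes with a rise in CD4 cells alone among the called changes, named here after their values were seen. Cd80, the second B7 ligand, read between 10.8 and 11.1 on every nTreg array, and rose in CD4 cells by 1.5 (difference -1.69, adjusted p = 0.00195). Cdkn1a, the p53-induced cell cycle inhibitor p21, changed by 0.33 in nTregs and 1.95 in CD4 cells (difference -1.62, adjusted p = 0.00126). Both differences passed whichever single array was left out.

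Some genes were called in both populations in the same direction, which does not show equal responses. Fam183b fell by 1.41 in CD4 cells, Clybl by 1.21 and Emc9, of the membrane insertion complex, by 0.99, beside 2.30, 1.15 and 0.76 in nTregs. Arfgef3 rose by 1.25 in nTregs and 1.23 in CD4 cells, Myl10 by 1.17 and 1.43, Noct, a deadenylase-like clock protein, by 1.01 and 1.2, and Sema7a by 1.5 and 1.09. For Fam183b the difference between the responses was -0.89 (adjusted p = 0.209). Scd1 fell in both, but further in CD4 cells (-2.02), a difference of 1.22 (adjusted p = 0.0198) that passed in 5 of the 12 fits without 1 array.

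Called genes lay next to each other in 15 groups of neighbours with the same direction, holding 34 of 21978 genes placed on the genome. Beyond the Tnf, Il23r, Birc2, Cd8 and H2-Aa groups, Aoc1 (0.60) rose beside Tmem176a and Tmem176b on chromosome 6, Mgat4a, a glycosyltransferase (1.23), rose beside a RIKEN transcript on chromosome 1, and Cmah, which makes a form of sialic acid, fell with its neighbour Ripor2 on chromosome 13. Cmah read 10.90, 11.06 and 11.12 in PBS arrays 1 to 3 and 10.44, 10.38 and 10.31 in AzaC arrays 1 to 3 (-0.65, adjusted p = 0.00385), with all AzaC arrays below all PBS arrays. Aoc1 lost its call without any one of the 6 nTreg arrays (adjusted p up to 0.145), Mgat4a without AzaC array 2 (0.0582) and Ripor2 without PBS array 2 or 3 or AzaC array 1 or 3 (0.118).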

How the data were processed

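RNA of sorted nTregs and CD4 cells was hybridised to 12 arrays (4 groups of 3). The deposited table holds log2 expression values. The submitters' processing notes name RMA and Affymetrix Expression Console, without a version, for what the authors did. Of 41345 array rows, 23521 have 1 gene symbol in GEO's platform annotation, 1814 several and 16010 none. The rows with 1 symbol cover 22180 genes, 1082 of them with several rows, and each gene was represented by its row with the highest mean over the 12 arrays. Identical arrays numbered 0.

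Differences, standard errors and p-values come from limma 3.58.1 (R 4.3.3) with 1 mean per group over all 12 arrays, moderated by eBayes. All adjusted p are Benjamini-Hochberg values over the 22180 genes, and "rose", "fell" and "called" mean an adjusted p under 0.05. The scripts were tested on simulated data. Array values are log2, standard errors belong to log2 differences, and the number of arrays limits the precision.

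Genes were named by rule. The first were the 15 largest rises and falls among called genes without overlap between AzaC and PBS arrays, a condition that all 448 called genes met. Predicted genes, small RNAs, receptor segments and histones were passed over. The others were called members of each gene list or else up to 2 with the smallest p, the 6 largest differences from CD4 cells each way, the 6 largest changes shared with them, 5 each way that depended on PBS array 1, called neighbours, and the 5 genes most like Il23r. Further genes are marked where they stand. The gene lists and comparisons were chosen with earlier results of these data known. Alternatives were leaving out each array, a filter at a mean log2 signal of 6, 2 scalings, the mean over a gene's rows, the nTreg arrays alone, the replicate number as a block (statmod 1.5.0), array weights and robust moderation.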

Additional observations from a re-analysis of the deposited data

Results flagged for a closer look

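For 8 genes among the largest changes, the AzaC response differed between nTregs and CD4 cells by limma's test of the difference. It was larger in nTregs for Atp8b4 (difference of the log2 responses 1.99, adjusted p = 0.00311), Plagl1 (1.92, 0.000268), Il23r (1.85, 0.0198), Csn2 (1.77, 0.0252), Dusp4 (1.74, 0.0468) and Nfkb2 (1.71, 0.0253). In nTregs the 3 AzaC values of each of these lay above the 3 PBS values, as they did for all 315 genes that rose. Atp8b4 and Plagl1 passed in all 12 fits that left out 1 array, Il23r in 6, Csn2 in 5, Nfkb2 in 3 and Dusp4 in 1, with adjusted p up to 0.151 for Dusp4 (0.0508 without PBS array 1).

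Muc3a fell in nTregs and changed by 0.10 in CD4 cells (difference -1.45, adjusted p = 0.0495). Gpr155 likewise fell in nTregs and changed by 0.27 in CD4 cells (difference -1.33, adjusted p = 0.0433). Both passed in only 2 of the 12 fits that left out 1 array, with adjusted p up to 0.136 and 0.125, and Muc3a did not pass without PBS array 1 (0.0551).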

How the results depend on the processing

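The number of genes called in nTregs, 448, was between 436 and 567 under the filter on dim genes, both scalings, the mean over a gene's rows and robust moderation. It was 125 (98 higher, 27 lower) with the nTreg arrays alone and 1290 (767 higher, 523 lower, a share of 59.5% higher) with array weights, which gave PBS array 1 a weight of 0.194. Of the 448, 123 were called with the nTreg arrays alone and 447 with array weights. Centring on the median gave 84 falls in place of 133. Leaving out 1 array gave 186 to 447 called genes, 129 to 321 higher and 44 to 158 lower, with the lowest counts without an nTreg AzaC array. The count of differences between the responses, 45, was 80 without dim genes, 89 with centred arrays, 401 with array weights and 9 to 69 without 1 array; the cause was not tested. With the replicate number as a replicate block, 451 genes were called with a fixed term and 458 with a random one, and 40 and 46 for the difference. Same-numbered nTreg arrays deviated together for numbers 1 and 2 (r = 0.154 and 0.187) but not for 3 (-0.072), so the numbers were not taken as pairs. No named gene changed direction while called. With 3 arrays a group and 1 of 3 controls apart, small differences could not be called at this precision.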

Other observations

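Further changes in nTregs belonged to none of the gene lists and are named here after their values were seen. Each kept an adjusted p under 0.05 in limma's fit whichever single array was left out. Kit, the receptor of stem cell factor, read 6.93, 7.15 and 7.37 in PBS arrays 1 to 3 and 8.69, 8.33 and 8.67 in AzaC arrays 1 to 3 (1.41, adjusted p = 0.000106). Asb2, which targets proteins for ubiquitination, read 6.92, 7.02 and 7.13 in PBS arrays 1 to 3 and 8.12, 8.40 and 8.60 in AzaC arrays 1 to 3 (1.35, adjusted p = 0.00015). For both, every AzaC array lay above every PBS array. Ubd, a ubiquitin-like protein induced by inflammatory cytokines, rose by 1.28, the inhibitory receptor Lilrb4a by 1.22 and Ptpn1, a tyrosine phosphatase, by 1.07. Myb, a transcription factor of lymphoid progenitors and effector regulatory T cells, rose by 1.14 in the row used, while its second row changed by -0.0081.

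Among falls of this kind, Mybl1, a relative of Myb, read 9.32, 9.17 and 9.16 in PBS arrays 1 to 3 and 8.51, 8.48 and 8.45 in AzaC arrays 1 to 3 (-0.73, adjusted p = 0.00291). Rnf128, the ubiquitin ligase GRAIL of T cell anergy, read 6.59, 6.69 and 6.41 in PBS arrays 1 to 3 and 5.77, 5.88 and 5.84 in AzaC arrays 1 to 3 (-0.73, adjusted p = 0.00417). The AzaC values of both lay below all PBS values, and their differences in CD4 cells were 0.07 and 0.07.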
